A study of Homo sapiens with 33 samples.

Results

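The small leucine-rich proteoglycans examined here were the 10 genes DCN, BGN, ASPN, FMOD, LUM, PRELP, OMD, KERA, OGN and EPYC, chosen by gene name from the 58735 genes of the table and followed over all 11 groups of bulk RNA-seq libraries. All libraries came from clone 24 of H9-DDdCas9VP192-FOXL2, a line of human embryonic stem cells (hESCs) in which a catalytically inactive Cas9 fused to the activator VP192 can be switched on at FOXL2, the gene of a forkhead transcription factor of ovarian supporting cells. Every group, the controls included, carried this genotype and went through the same gonadal differentiation on human collagen. Day 4 was sampled ahead of the induction. Days 6, 8, 10, 12 and 14 each had a non-induced control (CTRL) and an induced group (IND) that received doxycycline (DOX) and trimethoprim (TMP) from day 4. IND therefore differed from CTRL by the 2 compounds as well as by FOXL2, and no group received the compounds without the activation. Each group held 3 technical replicates of 1 differentiation of 1 clone, so the p-values measure how wells vary and leave out variation between differentiations.

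Small leucine-rich proteoglycans are secreted proteins with a core of leucine-rich repeats, most of which carry chondroitin, dermatan or keratan sulfate chains. They bind collagen fibrils and set their diameter and spacing, and several bind growth factors such as TGF-beta or cell surface receptors. They are typical products of fibroblasts and other mesenchymal cells, and in the ovary they belong to the stromal matrix around follicles. By structure, DCN (decorin), BGN (biglycan) and ASPN (asporin) form class I, FMOD (fibromodulin), LUM (lumican), PRELP (prolargin), OMD (osteomodulin) and KERA (keratocan) form class II, and OGN (osteoglycin) and EPYC (epiphycan) form class III.

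Most of the genes lie in 3 clusters of the genome (GRCh38). EPYC, KERA, LUM and DCN follow each other on the minus strand of chromosome 12 from 90963679 to 91183123, with a gap of 28.65 kb between LUM and DCN. OGN, OMD and ASPN lie on the minus strand of chromosome 9 from 92383967 to 92482506, inside the gene CENPP of the opposite strand. FMOD (minus strand, 203340628 to 203351758) and PRELP (plus strand, 203475828 to 203491352) lie 124.1 kb apart on chromosome 1. BGN lies on the plus strand of chromosome X from 153494939 to 153509554, and its start overlaps HAUS7. The libraries were non-directional, but no exon of CENPP or HAUS7 overlaps an exon of these genes. CENPP was not called in any comparison of IND with CTRL (edgeR adjusted p between 0.438 and 0.959).

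The 250 bases before the RefSeq start (GRCh38.p14) are shown for OGN and ASPN, from the same cluster on chromosome 9 and with rising levels late in differentiation, and for PRELP, which was upregulated in IND on 4 of 5 days. They are written 5′ to 3′ on the strand of the gene. The windows are chr9:92404700-92404949 (minus strand) for OGN, chr9:92482507-92482756 (minus strand) for ASPN and chr1:203475556-203475805 (plus strand) for PRELP. Capitals mark the letters TATAAA on either strand (TTTATA on the other).

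OGN: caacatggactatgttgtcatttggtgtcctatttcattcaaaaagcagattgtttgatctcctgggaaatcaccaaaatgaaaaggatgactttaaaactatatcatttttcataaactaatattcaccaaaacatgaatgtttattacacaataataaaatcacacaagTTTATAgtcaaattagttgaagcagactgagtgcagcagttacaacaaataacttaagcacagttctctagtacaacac
ASPN: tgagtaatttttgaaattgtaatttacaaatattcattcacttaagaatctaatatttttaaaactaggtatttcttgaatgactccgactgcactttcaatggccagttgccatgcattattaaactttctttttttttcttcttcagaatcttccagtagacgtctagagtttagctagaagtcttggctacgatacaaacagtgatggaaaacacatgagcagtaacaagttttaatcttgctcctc
PRELP: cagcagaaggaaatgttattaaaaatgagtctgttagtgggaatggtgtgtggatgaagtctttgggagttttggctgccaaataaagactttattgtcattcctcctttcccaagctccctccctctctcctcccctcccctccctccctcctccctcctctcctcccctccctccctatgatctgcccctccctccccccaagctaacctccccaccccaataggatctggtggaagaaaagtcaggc

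The table of promoters held 7 windows for 6 of the 10 genes (OGN with 2 starts, ASPN, PRELP, FMOD, BGN and EPYC). The forkhead letters GTAAACA were searched on both strands (TGTTTAC on the other) and were in none of the 7 windows, while 2.98% of 35116 windows of the same length held them. At that share, a set of 7 windows would mostly hold none, so this absence says little about the members. DCN and LUM had no window. TATAAA was in the windows of FMOD, EPYC and OGN, whose 2 overlapping windows hold the same match, against 10.7% of all windows. In the OGN window shown it lies on the opposite strand, 79 to 74 bases before the start. The windows of OGN and ASPN held 31.2% and 32.4% G and C, that of PRELP 52.8% and that of BGN 74.0%.

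The libraries held between 23940837 and 51912815 counts, with a median of 41420455. Levels of 1 gene across groups are given as CPM (counts scaled to the size of the library), with TMM over all 33 libraries, and as mean ± SD (n = 3). A library with 3 counts or fewer of a gene counted as at the floor for that gene. A gene counted as at the floor in a group when all 3 of its libraries were. The floor lay between 0.0564 and 0.129 CPM and covers counting error only. The induced gene FOXL2 was high in all 15 libraries of IND (147.5 to 577 CPM) and did not pass 0.388 CPM in the 18 others. Of 6 early gonadal markers, WT1, LHX9 and NR5A1 were at the floor at day 4. From day 8 on, no marker was at the floor in all 3 libraries of a group. LHX9 had at most 0.142 CPM in day 8 IND, with libraries at 0. The library day 10 IND replicate 2 had the lowest total and stood apart from the other 2 of its group. Its 8 markers of fibroblast-like mesenchyme summed to 59100 CPM against 18440 and 20790, and its 5 pluripotency markers to 1883 CPM against 360 and 432. Among the latter, POU5F1 did not pass 1.04 CPM in this group, against 71.8 ± 3.39 CPM at day 4, so the sum came from the other markers of that list. Its 7 cartilage markers summed to 5323 CPM against 771 and 973. Day 10 values of IND that the results turn on are also given without it.

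**Figure D1:**
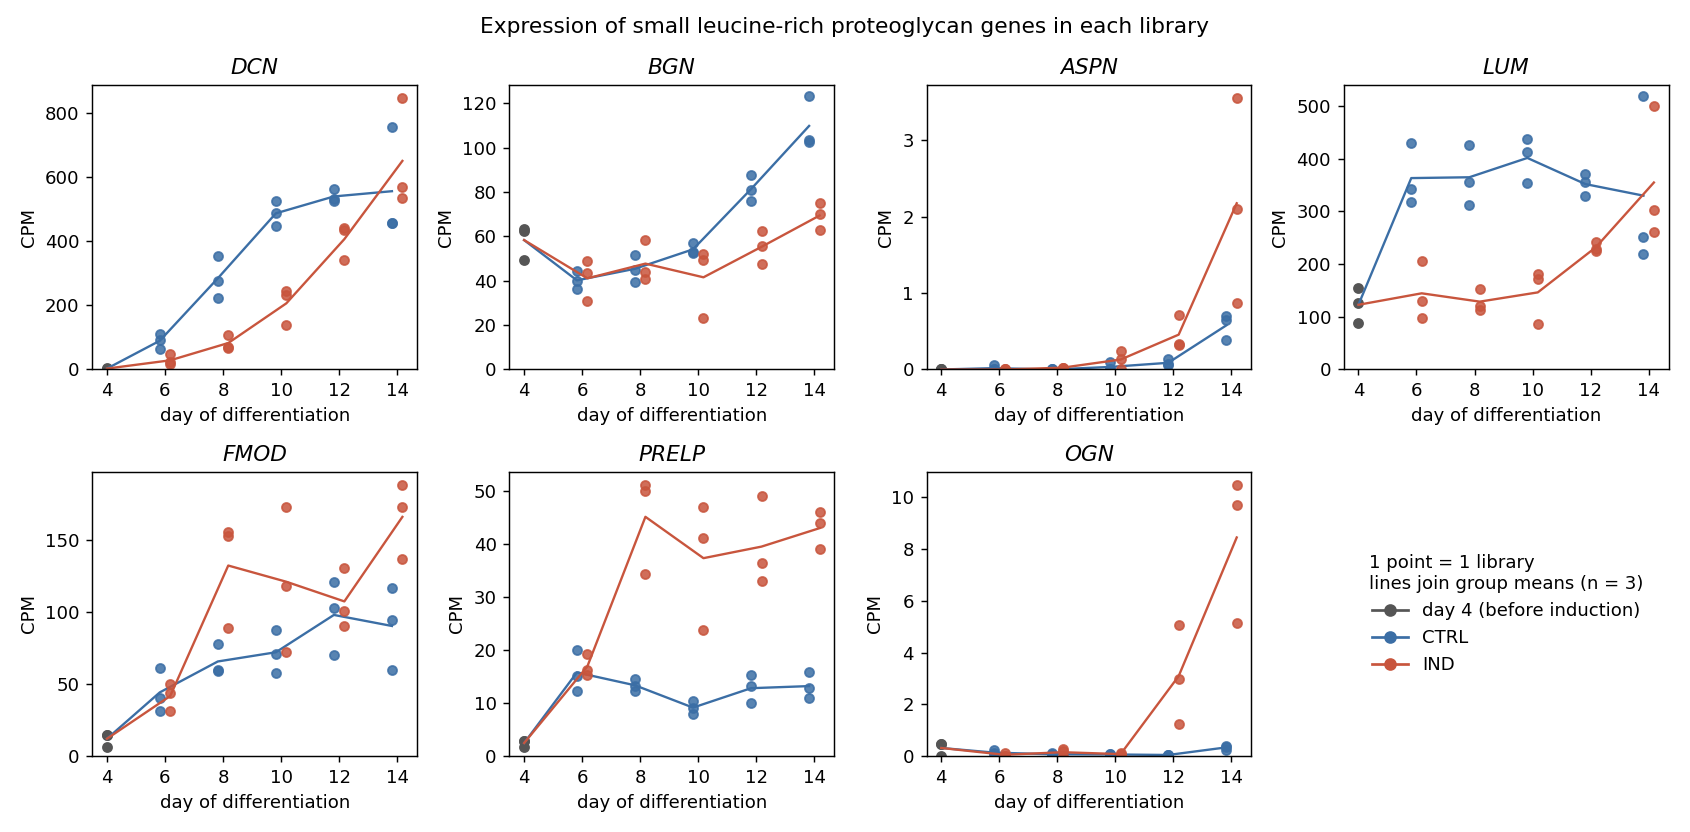
CPM of 7 genes in each library (points) by day of differentiation, with lines through the means of CTRL (blue) and IND (red) from day 4 (grey, before induction). DCN and LUM of IND lie below CTRL on days 6 to 12 and overlap with it at day 14, PRELP of IND lies above CTRL from day 8, and OGN of IND reaches between 5.16 and 10.5 CPM at day 14.

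To follow the family through differentiation without FOXL2, the CTRL groups were compared with day 4 (DIFF), and to follow it with FOXL2, the IND groups were compared with day 4 (DIFF+IND). These 2 sets of comparisons share the 3 day 4 libraries. Each comparison was fitted with the quasi-likelihood method of edgeR, p-values were adjusted over all genes (Benjamini-Hochberg, threshold 0.05), and log2 fold changes are given with their standard error (SE). In DIFF, 5 members had enough counts to be tested on days 6 to 12 and 7 at day 14. At day 6, 4 of these were upregulated and 1 downregulated, where 11.0% of all 18310 genes tested were upregulated and 10.6% downregulated. Upregulated members numbered 4 of 5 at day 8 (18.1% of all genes), 4 of 5 at day 10 (23.1%), 5 of 5 at day 12 (24.4%) and 6 of 7 at day 14 (24.6%), with none downregulated. In DIFF+IND, 3 of 5 were upregulated at day 6 (13.1% of all genes), day 8 (18.7%) and day 10 (11.9%, and 3 also without day 10 IND replicate 2), and 6 of 7 at day 12 (20.5%) and at day 14 (25.8%), with none downregulated. ASPN, without a count at day 4, had enough counts for these tests only through the later group. So did OGN in DIFF+IND, and neither could well be called downregulated there. Over the 5 members tested on every day, 5 were upregulated at day 14 of DIFF and 4 at days 12 and 14 of DIFF+IND. OMD, KERA and EPYC did not have enough counts for any of these tests.

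Among class I, DCN, whose core protein binds collagen and TGF-beta, rose against day 4 on every day in both conditions. It had 2.65, 1.32 and 4.49 CPM in the 3 day 4 libraries, and 457, 457 and 756 CPM in those of day 14 CTRL. The mean level in CTRL was 89.7 ± 23.5 CPM at day 6, 285 ± 65.5 at day 8 and 488 ± 40.0 at day 10. It was 540 ± 19.4 at day 12 and 557 ± 173 at day 14. The 3 means from day 10 on differed by less than the range of the day 14 libraries. The log2 fold change against day 4 was 4.98 (SE 0.37, edgeR adjusted p = 1.35e-05) at day 6 and 7.62 (SE 0.43, adjusted p = 2.17e-06) at day 14. In IND, the mean level was 28.7 ± 16.7 CPM at day 6, 82.7 ± 23.1 at day 8 and 207 ± 58.7 at day 10 (240 without replicate 2). It then reached 407 ± 57.4 CPM at day 12 and 651 ± 170 at day 14. The DIFF+IND log2 fold change was 3.35 at day 6 and 7.84 at day 14. Replicate 3 of day 14 had the highest DCN level in both conditions (756 CPM in CTRL and 846 in IND), and also the highest LUM level.

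BGN, the close paralog of DCN, was already expressed at day 4 with 62.3, 63.4 and 49.2 CPM. In CTRL it first decreased to 40.2 ± 4.04 CPM at day 6 (log2 fold change -0.54, SE 0.14, edgeR adjusted p = 0.0196), and then increased to 81.3 ± 5.89 at day 12 and 110 ± 11.7 at day 14 (log2 fold change 0.92, SE 0.13, adjusted p = 0.000454). The decrease did not pass in 3 of 12 alternatives, with adjusted p up to 0.0992. In IND, BGN was not called against day 4 on any day, with log2 fold changes between -0.50 and 0.24. The lowest was that of day 6 (-0.50, SE 0.18, edgeR adjusted p = 0.0654), near the value of CTRL. BGN had 41.1 ± 9.28 CPM in day 6 IND, without overlap with day 4. ASPN, which binds collagen and inhibits TGF-beta, had no count in any day 4 library. In CTRL it had 0.695, 0.386 and 0.650 CPM at day 14, at least 5.68-fold higher than day 4 with each day 4 library set to the floor of 3 counts. The day 14 IND libraries had 2.10, 0.876 and 3.54 CPM, at least 22.3-fold higher by the same bound.

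Among class II, LUM, a keratan sulfate proteoglycan of collagen fibrils, was the most abundant member at day 4 and was upregulated in CTRL from day 6 and in IND from day 12. The 3 day 4 libraries had 127, 88.1 and 154 CPM and those of day 6 CTRL had 318, 342 and 430 CPM, without overlap (log2 fold change 1.56, SE 0.19, edgeR adjusted p = 0.000241). The CTRL mean then stayed between 330 and 401 CPM up to day 14. The IND libraries of day 6 had 206, 130 and 98.0 CPM and overlapped with day 4 (log2 fold change 0.25, SE 0.27, adjusted p = 0.537). LUM of IND at day 12 no longer overlapped with day 4 (log2 fold change 0.91, SE 0.20, adjusted p = 0.0045), with 242, 228 and 226 CPM.

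FMOD and PRELP, both collagen-binding proteins of class II, rose against day 4 on every day in both conditions. FMOD had 14.9, 15 and 6.59 CPM at day 4 and 116.7, 60.0 and 94.4 CPM at day 14 in CTRL (log2 fold change 2.90, SE 0.34, edgeR adjusted p = 0.000111). In IND it had 137, 188 and 173 CPM at day 14 (log2 fold change 3.77, SE 0.29, adjusted p = 5.79e-06). PRELP had 2.91, 2.84 and 1.71 CPM at day 4. In CTRL it increased to 15.8 ± 3.97 CPM by day 6 and was between 9.17 and 13.4 CPM on average on the later days, with log2 fold changes between 1.90 and 2.66. In IND it had 17.0 ± 2.01 CPM at day 6 and then between 37.4 and 45.1 CPM on average (44.1 at day 10 without replicate 2, where the mean was 37.4 with it), with log2 fold changes between 3.90 and 4.19 from day 8 on.

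OGN, the member of class III known from bone and connective tissue, had 13, 14 and 0 counts in the day 4 libraries. In CTRL its ratio to day 4 was 0.461 (95% counting interval 0.232 to 0.886) at day 6, 0.261 (0.113 to 0.556) at day 8, 0.225 (0.0972 to 0.480) at day 10 and 0.156 (0.0573 to 0.367) at day 12. At day 14 of CTRL it had 31 counts in the 3 libraries, a ratio of 1.11 (0.639 to 1.93). In IND the ratio was 0.183 (0.0672 to 0.430) at day 6, 0.532 (0.286 to 0.977) at day 8 and 0.322 (0.148 to 0.656) at day 10. The day 4 level rests on 2 of its 3 libraries. The 341 counts of IND at day 12 and 1071 at day 14 were 9.14 (6.17 to 14.1) and 27.6 (18.9 to 42.1) times the day 4 level. The DIFF+IND log2 fold change was 3.26 (SE 0.81, edgeR adjusted p = 0.00888) at day 12 and 4.73 (SE 0.64, adjusted p = 0.000205) at day 14. OMD had at most 3 counts in any library and was at 0 in 28 of 33. KERA, the cornea proteoglycan, had at most 6 counts, and EPYC, which is known from epiphyseal cartilage, at most 12. EPYC had no count at day 4 and 21 counts over the 3 libraries of day 14 CTRL, at least 2.25-fold higher by the bound used for ASPN.

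To compare levels between genes, CPM were divided by the length of the main transcript in kb. Their sum over the 10 genes was 69.7 ± 7.49 at day 4, 263 ± 78.7 at day 14 in CTRL and 299 ± 66.1 at day 14 in IND. At day 8 it was 202 ± 23.1 in CTRL and 122 ± 24.3 in IND. LUM ranked first in every group. At day 4, LUM held 57.9% ± 10.4 of the sum and BGN 35.3% ± 7.87. At day 8 of CTRL, LUM held 59.8% ± 2.71 and DCN 19.5% ± 2.30, followed by FMOD with 10.0% ± 2.56 and BGN with 9.51% ± 2.26, whose libraries overlapped. At day 8 of IND, LUM held 35.3% ± 2.68 and FMOD 32.4% ± 5.19, and the libraries of these genes overlapped, while DCN held 9.41% ± 1.19. At day 14, DCN held 29.6% ± 2.48 in CTRL and 30.3% ± 1.34 in IND, and its libraries overlapped with those of LUM in both. PRELP held at most 6.44% and OGN at most 0.95% of the sum in any group. The deposited FPKM use the length of all exons of a gene together, which for DCN is 12847 bases against 7156 for its main transcript. On that scale LUM again ranked first in every group, but DCN fell behind BGN at day 14 of CTRL (43.8 against 45.1 FPKM) and day 10 of IND (16.0 against 16.9 FPKM), and behind PRELP at day 6 of IND (2.20 against 2.91 FPKM) and day 8 of IND (6.41 against 7.83 FPKM). The libraries of both genes overlapped in each of these groups.

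**Figure D2:**
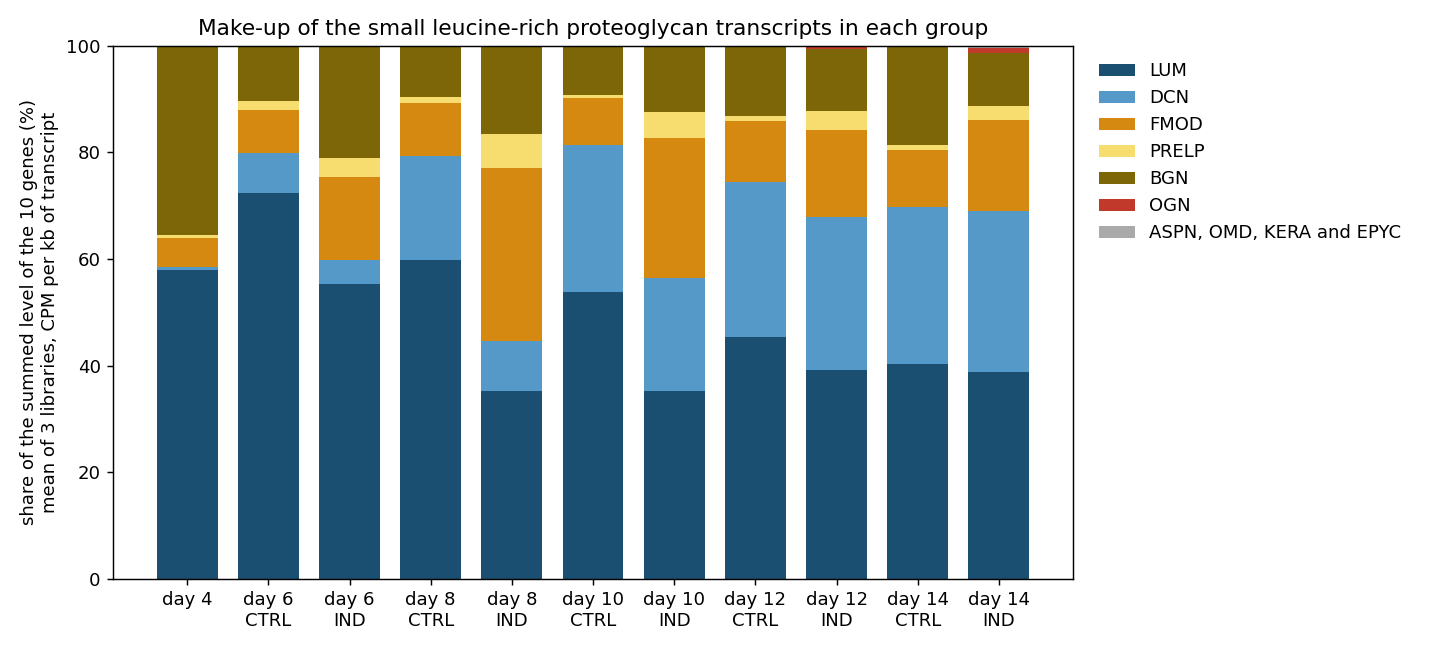
Share of each gene in the summed level of the 10 genes (%, CPM per kb of main transcript, mean of 3 libraries) in each group. LUM (dark blue) and BGN (olive) make up most of the sum at day 4, DCN (light blue) reaches 29.6% at day 14 of CTRL, and FMOD (orange) holds 32.4% at day 8 of IND against 10.0% in CTRL.

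To study the effect of FOXL2 induction, IND was compared with CTRL of the same day. DCN was downregulated in IND at days 8 and 10 and LUM at days 8 and 12, and neither was called at day 14. PRELP was upregulated from day 8 to day 14. OGN was upregulated and BGN downregulated at days 12 and 14, and ASPN was upregulated at day 14. At day 6, edgeR called none of the 5 members tested, where 3.66% of 19133 genes were called. The unadjusted p of edgeR was under the threshold for 2 of them, DCN and LUM. DESeq2 and the fit over all 33 libraries called both, and limma-trend on log2(FPKM + 1) called LUM. At day 8, 2 of 5 were upregulated and 2 downregulated (7.49% and 6.67% of all genes). At day 10, 1 of 5 was upregulated and 1 downregulated (0.856% and 1.18%). At day 12, 2 of 7 were upregulated and 2 downregulated (2.38% and 3.04%), and at day 14, 3 of 7 were upregulated and 1 downregulated (3.21% and 5.22%). Without day 10 IND replicate 2, 1 of 5 was upregulated and 2 downregulated at day 10 (8.74% and 9.51% of 20650 genes). OGN and ASPN had enough counts to be tested only at days 12 and 14. OGN on both days and ASPN at day 12 had them only through the levels in IND. Over the 5 members tested on every day (DCN, BGN, FMOD, LUM and PRELP), 1 was upregulated and 2 downregulated at day 12, and 1 was upregulated and 1 downregulated at day 14. The median log2 fold change of these 5 was -0.07, 0.08, -0.38, -0.41 and 0.23 from day 6 to day 14, and that of all genes tested stayed between -0.01 and 0.02.

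**Figure D3:**
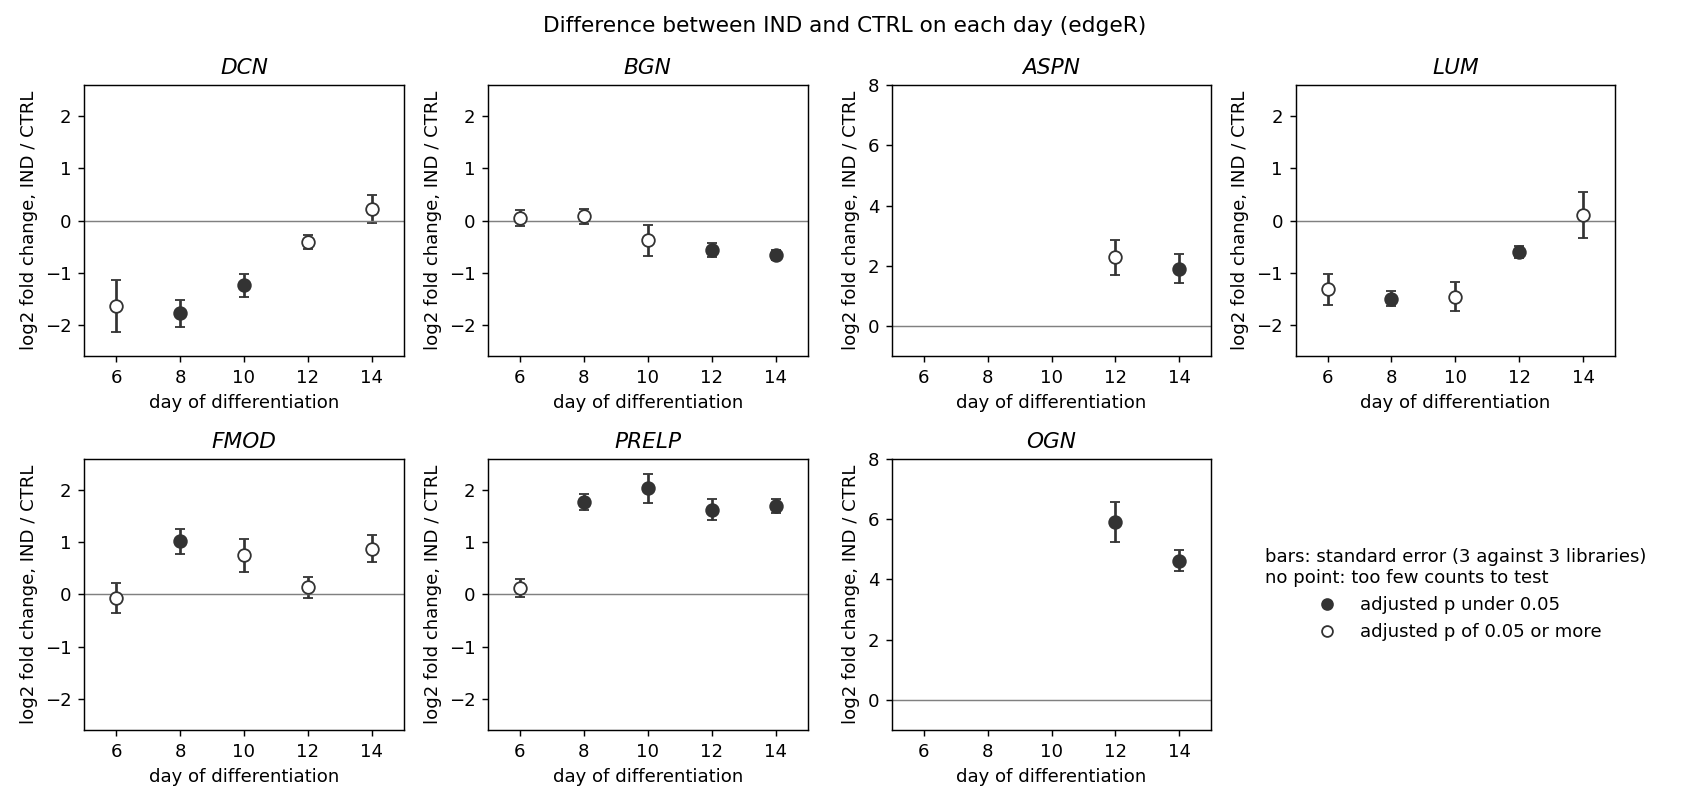
Log2 fold change of IND against CTRL on each day (edgeR, 3 against 3 libraries; bars, SE; filled points, adjusted p under 0.05) for the 7 genes tested on at least 1 day. DCN and LUM move from about -1.5 at day 8 to about 0 at day 14, PRELP lies between 1.63 and 2.03 from day 8, and BGN falls to -0.66. The vertical axis of ASPN and OGN is wider.

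DCN at day 8 had 275, 225 and 355 CPM in CTRL and 67.7, 71.1 and 109 CPM in IND, without overlap. Its log2 fold change was -1.77 (SE 0.26, edgeR adjusted p = 0.00912), and it was called under all 12 alternatives. LUM at day 8 had 355, 313 and 426 CPM in CTRL and 112, 121 and 153 CPM in IND (log2 fold change -1.49, SE 0.14, adjusted p = 0.000342), and was likewise called under all 12 alternatives. At day 6 the libraries of both genes did not overlap either, as in 11.0% of all genes with lower levels in IND. Their log2 fold changes at day 6 were -1.63 (SE 0.50, adjusted p = 0.258) for DCN and -1.31 (SE 0.30, adjusted p = 0.108) for LUM.

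At day 10, DCN had 447, 528 and 488 CPM in CTRL and 247, 139 and 234 CPM in IND (log2 fold change -1.24, SE 0.22, edgeR adjusted p = 0.0492). LUM had 353, 413 and 438 CPM in CTRL and 180, 86.3 and 172 CPM in IND (log2 fold change -1.45, SE 0.28, adjusted p = 0.0614). For both genes, IND replicate 2 was the lowest library. Without it the log2 fold changes were -1.02 (adjusted p = 1.36e-06) and -1.19 (adjusted p = 1.47e-06), while without any other library of day 10 neither gene was called (adjusted p between 0.103 and 0.280). LUM was called at day 10 by DESeq2, without the filter on low counts and in the fit over all 33 libraries. With the replicate number as a block, the adjusted p was 0.150 for DCN and 0.140 for LUM. At day 12, LUM had 371, 356 and 329 CPM in CTRL and 242, 228 and 226 CPM in IND (log2 fold change -0.60, SE 0.11, adjusted p = 0.0151). This call was lost without any 1 of the 3 CTRL libraries or IND replicate 2, and in the fit over all 33 libraries (adjusted p between 0.0569 and 0.253). DCN at day 12 did not overlap between the groups but was not called (log2 fold change -0.41, SE 0.13, adjusted p = 0.127).

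At day 14 the libraries of DCN and LUM overlapped. DCN had 457, 457 and 756 CPM in CTRL and 571, 537 and 846 CPM in IND (log2 fold change 0.23, SE 0.27, edgeR adjusted p = 0.6997). LUM had 252, 220 and 519 CPM in CTRL and 303, 262 and 500 CPM in IND (log2 fold change 0.11, SE 0.43, adjusted p = 0.923). In bulk samples, fewer cells of a type and less RNA per cell cannot be told apart. The 8 markers of fibroblast-like mesenchyme include COL1A1, COL1A2 and COL3A1, which are also among the 14 collagen genes below. Their sum is therefore not separate from the matrix genes. None of the 8 was at the floor. At day 8 they summed to between 11460 and 15700 CPM in IND and between 15890 and 18740 in CTRL. Of the 8 markers, 3 were downregulated and none upregulated at day 8 (6.67% and 7.49% of all genes). The sums of the groups overlapped at day 12 (21150 to 25620 CPM in IND and 23020 to 24090 in CTRL). At day 14 they lay between 28240 and 32630 CPM in IND and between 19940 and 25730 in CTRL, with 2 markers upregulated and 1 downregulated (3.21% and 5.22% of all genes). The 6 early gonadal markers summed to between 142 and 182 CPM in IND and between 377 and 508 in CTRL at day 8, and the 5 markers of neural crest and glia to between 146 and 165 against 266 and 429 CPM. Both sums were also lower in IND at day 14, with 295 to 340 against 420 to 510 CPM and 267 to 335 against 491 to 821 CPM. No marker of these lists was at the floor in all 3 libraries of a group on either day. Day 10 IND replicate 2, the library that stood apart, had the highest mesenchyme and early gonadal sums of its group. Its neural crest and glia sum was the lowest of the group. So were its sums of neuronal markers (48.3 against 120 and 136 CPM) and endothelial markers (78.6 against 127 and 143 CPM). DCN and LUM were lowest in this library too, as were BGN, FMOD and PRELP, so the low values were not particular to these genes or cells. The part of these cells in the results of DCN and LUM was not tested.

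PRELP was upregulated in IND from day 8 on. At day 6 it had 12.2, 20.1 and 15.1 CPM in CTRL and 15.3, 16.3 and 19.2 CPM in IND, which overlapped (log2 fold change 0.12, SE 0.17, edgeR adjusted p = 0.838). At day 8 it had 13.3, 14.6 and 12.2 CPM in CTRL and 34.3, 51.2 and 49.97 CPM in IND (log2 fold change 1.77, SE 0.15, adjusted p = 6.86e-05). At day 10 it had 10.5, 7.88 and 9.16 CPM in CTRL and 47.1, 23.8 and 41.2 CPM in IND, with replicate 2 the lowest (log2 fold change 2.03, SE 0.28, adjusted p = 0.0211). Without that library the log2 fold change was 2.26 (adjusted p = 7.785e-08), while without any other library of day 10 the adjusted p was between 0.0774 and 0.162, and with the replicate block it was 0.0710. At day 12 the log2 fold change was 1.63 (SE 0.20, adjusted p = 0.00411). At day 14, PRELP had 15.9, 12.8 and 11.0 CPM in CTRL and 39.0, 46.0 and 44.1 CPM in IND (log2 fold change 1.70, SE 0.13, adjusted p = 7.92e-06). The calls at days 8, 12 and 14 were kept under all 12 alternatives each. The 5 endothelial markers summed to between 149 and 163 CPM in IND and between 125 and 132 in CTRL at day 8. Of these, 3 of 5 were upregulated at day 8, as were 7.49% of all genes. At day 14 the sums were 87.1 to 124 against 57.1 to 97.1 CPM, with none called. At day 6 they were lower in IND, with 101.5 to 110 against 120.7 to 144.4 CPM. They overlapped at day 10 and at day 12 (76.2 to 81.6 CPM in IND and 69.3 to 87.5 in CTRL). The 7 cartilage markers summed to between 771 and 5323 CPM in IND and between 458 and 577 in CTRL at day 10, with replicate 2 the highest. At day 12 their sums were 789 to 1303 against 512 to 622 CPM. The cartilage sums of the groups overlapped at days 6, 8 and 14. None of these markers was at the floor, and their part in the result of PRELP was not tested.

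FMOD was upregulated at day 8, and a difference of its effect between days was not called. It had 60.1, 77.7 and 59.4 CPM in CTRL and 88.6, 153 and 155 CPM in IND at day 8 (log2 fold change 1.02, SE 0.24, edgeR adjusted p = 0.0447). That call was lost in 6 of 12 alternatives, among them leaving out CTRL replicate 1 or 3 or IND replicate 2 or 3 (adjusted p between 0.124 and 0.157). At day 14 the groups again did not overlap, as in 12.9% of all genes with higher levels in IND, but FMOD was not called (log2 fold change 0.88, SE 0.26, adjusted p = 0.110). It was called at day 14 by DESeq2 (adjusted p = 0.0317) and without CTRL replicate 1 or 2 (0.0423 and 0.0249).

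Between IND and CTRL, OGN had the largest edgeR log2 fold change of the members tested at days 12 and 14. At day 12 it had 2, 2 and 3 counts in the CTRL libraries and 134, 57 and 150 counts in the IND libraries. The ratio of the summed levels was 58.6 (95% counting interval 28.1 to 147). The fitted log2 fold change was 5.91 (SE 0.66, edgeR adjusted p = 0.00254), a value that depends on how the near-zero CTRL counts are smoothed. At day 14 it had 0.374, 0.246 and 0.406 CPM in CTRL and 9.71, 5.16 and 10.5 CPM in IND (log2 fold change 4.62, SE 0.35, adjusted p = 6.72e-06), a ratio of 24.9 (17.5 to 36.9). The day 14 call was kept under all 12 alternatives, and the day 12 call was lost only with limma-trend on log2(FPKM + 1) (adjusted p = 0.0582). At days 6 to 10 OGN had between 7 and 21 counts per group and was not tested. The ratio of IND to CTRL was 0.397 (0.138 to 1.02) at day 6, 2.04 (0.920 to 4.86) at day 8 and 1.43 (0.566 to 3.69) at day 10 (1.77, 0.701 to 4.57, without IND replicate 2), so a difference was not detectable at this depth.

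ASPN, in the chromosome 9 cluster with OGN and OMD, was upregulated at day 14. At day 10 it had 19 counts in IND and 5 in CTRL, a ratio of 4.53 (95% counting interval 1.64 to 15.5) with IND replicate 2 at 0, and of 5.60 (2.02 to 19.2) without that library. At day 14 it had 26, 11 and 16 counts in CTRL and 69, 36 and 183 counts in IND, without overlap (log2 fold change 1.91, SE 0.49, edgeR adjusted p = 0.0328). The call was lost in 7 of 12 alternatives, with adjusted p between 0.0505 and 0.224. Those were leaving out any 1 CTRL library or IND replicate 1 or 3, the fit over all 33 libraries and limma-trend on log2(FPKM + 1). At day 12 it had 7, 3 and 3 counts in CTRL and 15, 15 and 21 in IND (log2 fold change 2.29, SE 0.58, adjusted p = 0.0587). OMD, which lies between OGN and ASPN, had no count in any day 12 IND library and 1 library above 0 at day 14 of IND. KERA and EPYC had 12 and 19 counts in day 14 IND and 5 and 21 in day 14 CTRL, and both ratios had intervals that include 1 (0.568 to 6.27 and 0.332 to 1.28). At day 12 EPYC had 14 counts in IND, 11 of them in 1 library, and 5 in CTRL, a ratio of 3.37 (1.15 to 11.9).

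BGN was the only member downregulated at day 14. It had 123, 104 and 102 CPM in CTRL and 69.9, 75.1 and 63.0 CPM in IND (log2 fold change -0.66, SE 0.10, edgeR adjusted p = 0.000909). The call was kept under 11 of 12 alternatives, and in the fit over all 33 libraries the adjusted p was 0.05004. At day 12 it had 80.7, 75.7 and 87.5 CPM in CTRL and 62.6, 55.5 and 47.7 CPM in IND (log2 fold change -0.55, SE 0.13, adjusted p = 0.0472). This call was lost in 8 of 12 alternatives, including every library left out except IND replicate 1 (adjusted p up to 0.207). At days 6 and 8 the libraries overlapped, with log2 fold changes of 0.05 and 0.08. At day 10 BGN had 52.8, 56.9 and 52.7 CPM in CTRL and 51.9, 23.3 and 49.4 CPM in IND, without overlap but with replicate 2 far below the others (log2 fold change -0.38, SE 0.29, adjusted p = 0.552). Without that library the log2 fold change was -0.10 (adjusted p = 0.405). HAUS7, which overlaps its start, was not called on any day (adjusted p between 0.617 and 0.975).

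Whether the effect of induction changed with the day was tested with the interaction of day and induction over the 30 libraries after day 4. Of the 7 members with enough counts, 3 were called, where 2.38% of 22442 genes were called. They were OGN (edgeR adjusted p = 0.000959), PRELP (0.00187) and DCN (0.0180). The others were LUM (adjusted p = 0.0686), BGN (0.341), FMOD (0.383) and ASPN (0.601). OGN and ASPN had most of their counts in IND of days 12 and 14 (341 and 1071 for OGN, 51 and 288 for ASPN). The OGN call therefore rests on these groups, with 7 to 21 counts per group on days 6 to 10. LUM was called in addition to OGN, PRELP and DCN with the replicate block (adjusted p = 0.0245), DESeq2 (0.00476) and limma-trend on log2(FPKM + 1) (0.0496), and also without the filter on low counts. Without day 10 IND replicate 2, the 3 calls were kept and BGN was called as well (adjusted p = 0.0307). Without replicate 1 of every group PRELP alone was called (0.0310), without replicate 2 PRELP (0.0153) and OGN (0.0141) were, and without replicate 3 none was, with DCN at 0.0820, OGN at 0.0814 and PRELP at 0.187.

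The genes most alike in pattern were found by Pearson correlation of log2 CPM over the 33 libraries among 12718 protein-coding genes. These values describe a shared course over the same libraries and days. SFXN3 and EDNRA had the highest correlation with DCN (r = 0.98 each), PLAT with LUM (0.92), DUSP7 with BGN (0.87), RAMP2 with FMOD (0.93), SH3GL2 with PRELP (0.93), ISLR with ASPN (0.87) and SERTAD4 with OGN (0.78). ADAMTS5, a protease of matrix proteoglycans, ranked second for FMOD (0.92) and CD44, a hyaluronan receptor, second for OGN (0.78). Among the members, FMOD and PRELP of chromosome 1 had r = 0.86, OGN and ASPN of chromosome 9 had 0.81, DCN and FMOD 0.78, and DCN and LUM of chromosome 12 had 0.70. LUM and PRELP were uncorrelated (0.00). Without day 10 IND replicate 2 these values were 0.86, 0.80, 0.78, 0.74 and 0.03. ASPN was above the floor in 13 of the 33 libraries and OGN in 21, so their correlations include many libraries near 0.

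The partners of the family were examined with lists that were chosen with earlier results of these data known. Of 8 other genes of the family or close to it, 6 were tested at day 14 and none was called between IND and CTRL on any day. TSKU (tsukushi), the most abundant of these, had 39.5 ± 3.75 CPM in IND and 44.2 ± 1.84 in CTRL at day 14. In these comparisons 7.49% of all genes were upregulated and 6.67% downregulated at day 8, and 3.21% and 5.22% at day 14. Of 14 collagen genes whose products the family binds, 2 were upregulated and 7 downregulated at day 8 and 3 were upregulated and 2 downregulated at day 14. COL14A1 and COL12A1, fibril-associated collagens, were upregulated at day 14, with 103 ± 20.3 against 45.0 ± 8.55 CPM (log2 fold change 1.20, edgeR adjusted p = 0.00364) and 17.9 ± 2.71 against 8.14 ± 2.09 CPM (1.14, adjusted p = 0.00282). COL11A2 and COL5A3, minor fibril-forming chains, were downregulated with log2 fold changes of -1.31 (adjusted p = 1.07e-05) and -1.75 (adjusted p = 0.0137).

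Of 22 genes that build chondroitin and dermatan sulfate chains and their linkage to the core protein, 7 were upregulated and none downregulated at day 8 (7.49% and 6.67% of all genes). At day 14, 21 were tested, of which 3 were upregulated and 2 downregulated (3.21% and 5.22%). CHST15, a chondroitin sulfotransferase, had 39.5 ± 3.39 CPM in IND and 13.4 ± 3.82 in CTRL at day 8 and 39.6 ± 3.59 against 18.8 ± 4.52 at day 14 (log2 fold change 1.07, SE 0.15, edgeR adjusted p = 0.00113). DSEL, a dermatan sulfate epimerase, was upregulated at day 14 (0.60, adjusted p = 0.0181), and XYLT1, which adds the first sugar to the core protein, and CHSY3, a chain polymerase, were downregulated (-0.62, adjusted p = 0.00190, and -0.89, adjusted p = 0.0427). Of 8 genes for keratan sulfate chains, 7 were tested, of which 4 were upregulated at day 8 (7.49% of all genes) and 1 at day 14 (3.21%), B3GNT2 (0.45, adjusted p = 0.0235). None of this list was downregulated on either day. The median log2 fold change at day 8 was 0.22 for the first list and 0.32 for the second, against 0.00 for all genes.

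Among 12 genes of proteases and their helpers that act on the family, ADAMTS5 had 64.6 ± 6.26 CPM in IND and 14.9 ± 3.73 in CTRL at day 8 and 48.2 ± 5.72 against 15.8 ± 2.21 at day 14 (log2 fold change 1.61, SE 0.13, edgeR adjusted p = 7.60e-06). ADAMTS4 was downregulated at day 14 (-0.57, SE 0.16, adjusted p = 0.0478). MMP3, MMP7 and MMP13 were at the floor in both groups of day 14. Of 19 growth factors and receptors bound by the family, 3 were upregulated and 5 downregulated at day 8 (7.49% and 6.67% of all genes), and WNT3A (-1.11), the receptor ERBB4 (-0.83) and CCN2 (-0.69) were downregulated at day 14 (5.22% of all genes) with none upregulated. Of 13 other matrix proteoglycans, 11 were tested at day 14, of which 4 were downregulated and none upregulated (5.22% and 3.21% of all genes). They were NCAN, BCAN and SPOCK2, which are known from the nervous system, with log2 fold changes of -2.0, -1.81 and -1.80, and AGRN with -0.37. The 6 neuronal markers moved with these, summing to between 280 and 344 CPM in IND and between 365 and 638 in CTRL at day 14, with 4 of 6 downregulated and none at the floor. Their part in the result was not tested.

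**Figure D4:**
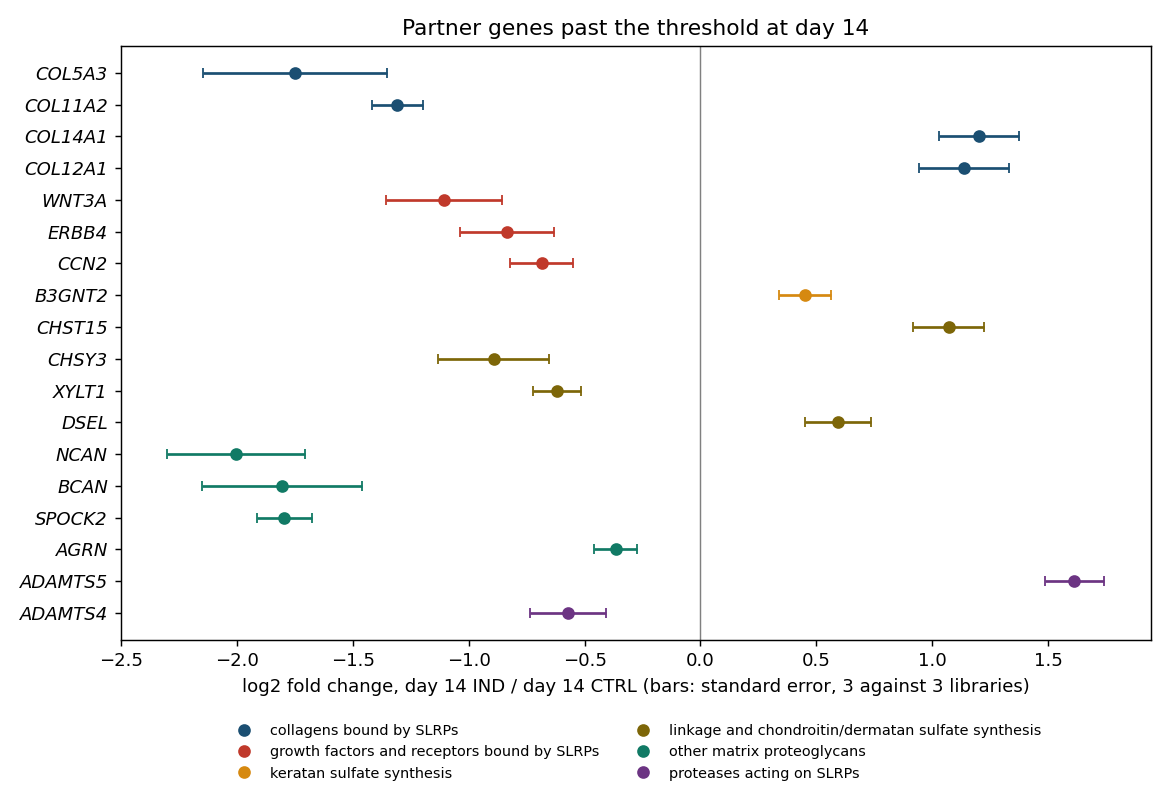
Log2 fold change between day 14 IND and day 14 CTRL (horizontal axis; bars, SE; 3 against 3 libraries) of the genes from the 6 partner lists with an adjusted p under 0.05, up to 4 a list with the largest change. ADAMTS5 and COL14A1 lie farthest to the right (1.61 and 1.20) and NCAN, BCAN and SPOCK2 farthest to the left (-2.0, -1.81 and -1.80).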

How the data were processed

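Per the labels and methods, the authors had poly-A RNA of 33 libraries sequenced without strand information, trimmed with fastp 0.23.2, mapped with HISAT2 2.0.5 and counted with featureCounts 1.5.0-p3. They deposited raw counts per gene and FPKM, which scale the counts to library size and to the exons of a gene (GENCODE release 29, GRCh38). No per-sample column was left without a sample.

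CPM and tests were obtained from the counts in R 4.3.3 with edgeR 4.0.16 (filterByExpr, TMM, robust quasi-likelihood fit, Benjamini-Hochberg) on the 6 libraries of each of 15 comparisons. The study's DESeq2 design was an alternative (DESeq2 1.42.0), beside RLE size factors, no filter, 1 fit over all 33 libraries, limma-trend (limma 3.58.1) on log2(FPKM + 1), the replicate number as a block and each library left out. On simulated data for day 14, edgeR recovered 142 of 200 changed genes. Replicates differed beyond counting error (chi-squared per gene between 7.82 and 246 over 33 pairs).

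All 10 members were named, from each partner list up to 4 genes with the largest change at day 14 among those called, and 3 like genes a member. The members and lists were chosen with earlier results of these data known. Counting intervals (95%) and floors cover counting error only.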

Additional observations from a re-analysis of the deposited data

Results flagged for a closer look

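The effect of induction differed between days for 3 of the 7 members tested, by the joint test of the 4 interaction terms (edgeR, adjusted over all genes). For DCN the adjusted p was 0.018, with a log2 fold change between IND and CTRL of -1.77 at day 8 and 0.23 at day 14. For PRELP it was 0.00187, with 0.12 at day 6 and between 1.63 and 2.03 from day 8 on. For OGN it was 0.000959, with 7 counts in IND and 16 in CTRL at day 6 and 1071 and 31 at day 14. None of the 3 was called without replicate 3 of every group.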

How the results depend on the processing

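The 59 calls of members against a group kept their direction under every alternative. With DESeq2, the number of members called at day 6 in IND was 2 instead of 0. With the fit over all 33 libraries it was 2 at day 6, 2 instead of 4 at day 12 and 2 instead of 4 at day 14 of IND, and 5 instead of 3 at day 10 of DIFF+IND. With limma-trend on log2(FPKM + 1) it was 1 at day 6, 1 instead of 2 at day 10 and 2 instead of 4 at day 12 of IND. With no filter on low counts, 6 members instead of 3 had an interaction of day and induction. The share of all genes called under each setting is not given beside these counts, so a change may be shared by all genes. The cause was not tested.

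With 1 library left out at a time, the number of members called in IND was 0 to 2 at day 6, 3 to 4 at day 8, 0 to 3 at day 10, 2 to 6 at day 12 and 3 to 4 at day 14. At day 6, 2 were called without IND replicate 1 and 1 without IND replicate 3. At day 10, 3 were called without IND replicate 2 and 0 without any other library. Leaving out that library also raised the share of all genes called, from 0.856% to 8.74% upregulated and from 1.18% to 9.51% downregulated. For the other libraries left out that share is not given. At day 12, 2 were called without any 1 of the CTRL libraries or without IND replicate 2. In DIFF the number was 4 to 5 at day 6, 4 to 6 at day 8, 4 to 5 at day 10, 4 to 6 at day 12 and 6 at day 14. In DIFF+IND it was 3 to 5 at day 6, with 5 without day 4 replicate 3, and 3 to 4 at day 8, 3 at day 10 and 6 at days 12 and 14. For the interaction it was 0 to 4.

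The log2 fold changes that turned direction with 1 library left out were all uncalled in the comparison with every library. In IND they ranged between -0.09 and 0.22 for BGN, -0.26 and 0.24 for FMOD and -0.03 and 0.33 for PRELP at day 6, between -0.09 and 0.19 for BGN at day 8, between -0.06 and 0.31 for FMOD at day 12 and between -0.22 and 0.60 for LUM at day 14, where the highest value was without CTRL replicate 3. Against day 4 they ranged between -0.47 and 0.57 for OGN at day 14 in CTRL, and in IND between -0.10 and 0.47 for LUM at day 6, -0.11 and 0.27 for LUM at day 8 and -0.20 and 0.02 for BGN at day 12.

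Libraries with the same replicate number did not deviate together. For the 15 pairs within IND comparisons the deviations correlated with r from -0.107 to 0.078, and of the 15 pairs of DIFF 2 were over 0.1. The replicate block gave 0 instead of 2 members called at day 10 of IND, and it was within 1.5 times the count without the block in every other comparison.

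Precision is limited by 3 wells of 1 differentiation. OGN and ASPN rest on few counts outside day 12 and day 14 of IND, and OMD, KERA and EPYC had too few counts for the tests reported. Calls of DCN and PRELP at day 10, LUM at day 12, BGN at day 12, FMOD at day 8 and ASPN at day 14 depend on single libraries.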
